A study of Mus musculus with 6 samples.

Results

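Pseudogenes that gathered many reads were examined in livers of male C57BL/6 mice fed a high-fat diet (HFD). A row of the gene table was taken when its annotated biotype contained the word pseudo and its mean over the 6 libraries was at least 100 reads, which gave 390 pseudogenes of 6552 pseudogene rows and of 45777 genes in all. The pseudogenes were thus chosen by their read counts, with both genotypes averaged together, and the read levels given here are a description and carry no test. Of the remaining pseudogene rows, 6162 lay under the limit, and 2607 pseudogene rows in all had at least 1 read. The last pseudogenes inside the limit were Gm7324 (mean of 101.3 reads), Gm16386 (100.5 reads) and Gm6829 (100.5 reads), and the first outside it were Cyp2d41-ps (99 reads), Gm13436 (97.8 reads) and Gm11249 (97.7 reads).

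RNA from whole liver of 3 littermate controls (LT, Fpn fl/fl, carrying the floxed ferroportin gene Slc40a1 without Cre) was compared with RNA from 3 hepatocyte-specific ferroportin knockouts (Fpn-LKO, Fpn fl/fl with Alb-Cre). Both groups carried the floxed allele, and the mice were put on the HFD as young adults after the line, derived from a 129S floxed strain, had been backcrossed to C57BL/6J. Cre was driven by the albumin promoter, which is active in hepatocytes, whereas the libraries held all cells of the liver. All 6 mice carried the same batch label, and the labels gave no age.

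A pseudogene is a copy of a gene that has lost the ability to make the full protein. Processed pseudogenes came from a spliced messenger RNA that was copied back into the genome, so they usually have a single exon and arise most often from strongly expressed housekeeping genes such as those for ribosomal proteins. Unprocessed pseudogenes came from duplication of a stretch of chromosome and keep introns, which is common in gene clusters of liver-secreted proteins and detoxifying enzymes. A short read from a recent copy can fit the copy and its source equally well, and the count given to each then depends on how the aligner and the assembler shared such reads.

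The libraries held 43086184 to 47778683 counted reads, and the 390 pseudogenes took 0.791% to 1.43% of them. Hepatocyte markers dominated in every library (6 of 6 listed markers found, summed level of 52090 to 70570 CPM, read counts scaled to library size, in LT and 55180 to 66260 in Fpn-LKO). Summed endothelial markers were lower in every Fpn-LKO library (221 to 250 CPM) than in any LT library (254 to 298 CPM; exact two-sided permutation p = 0.1, the smallest that 3 against 3 mice allow), and their part in the results was not tested. In bulk tissue fewer cells of a type and less RNA per cell cannot be told apart. Summed markers of Kupffer cells (126 to 284 CPM over all libraries), stellate cells (334 to 439) and blood (258 to 898) overlapped between genotypes, and those of bile ducts and of T and B cells stayed at or under 2.25 CPM. Pancreatic acinar markers came to 0.580 to 1.43 CPM in LT and 0 to 0.346 CPM in Fpn-LKO, with Cpa1, Prss2 and Pnlip, 3 of the 4 listed, at 0 in all libraries. Slc40a1 is the targeted gene, and libraries labelled Fpn-LKO held as many of its reads as the controls, with 7661, 7809 and 5224 reads in LT and 6844, 6696 and 8162 reads in Fpn-LKO (log2 fold change 0.01 ± 0.16 SE, edgeR adjusted p = 0.995). Reads summed over the whole gene do not show whether the floxed exons were removed, so the knockout could not be checked here, and the groups are named by their labels. Speer6-ps1, the pseudogene that the Alb-Cre strain name gives as its insertion site, had 0 reads in all 6 libraries.

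The reads were concentrated in few pseudogenes. Of the 390, 55 averaged 1000 reads or more and 147 averaged below 200, with a median of 266 reads. The 3 with the most reads took 42.6% of all reads in the set, and the first 10 took 57.2%. By the biotype column 322 were pseudogenes and 68 were transcribed pseudogenes. By name, 98 carried a -ps suffix, 268 had a Gm, LOC or Rik number, and 24 had another name. They lay on 20 chromosomes, 22 of them on the X.

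**Figure D1:**
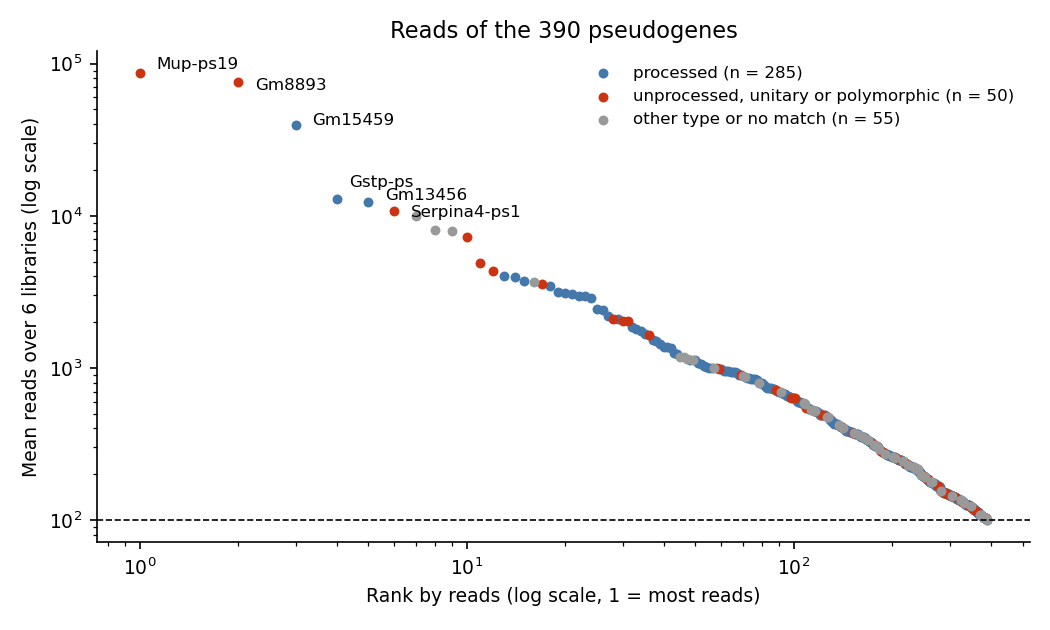
Mean reads over the 6 libraries (log scale) of each of the 390 pseudogenes against its rank (log scale), coloured by GENCODE type. The dashed line is the limit of 100 reads, and 3 pseudogenes stand above all the others, the first at 86729 reads.

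Among the 10 with the most reads, 4 relatives of genes for proteins that the liver secretes are described first. Mup-ps19 belongs to the cluster of major urinary proteins, pheromone carriers that male mice secrete from the liver. It held 89880, 18440 and 218148 reads in LT and 42477, 79467 and 71961 reads in Fpn-LKO, so LT mice spanned the whole range and the genotypes overlapped. The 21 coding Mup genes summed to 32980, 127100 and 127600 CPM in LT against 50550, 129500 and 146000 CPM in Fpn-LKO. LT 2 was thus lowest for the pseudogene and near the highest LT value for the coding genes. Gm8893 is a copy of the alpha-1-antitrypsin gene Serpina1a and overlaps the span of Serpina1b on the same strand. It held 42768, 59968 and 71185 reads in LT and 82892, 118184 and 81932 in Fpn-LKO. Its CPM did not overlap between genotypes (log2 fold change 0.61 ± 0.29 SE), but the difference did not pass the test (adjusted p = 0.982). Serpina4-ps1, from the same serpin cluster, varied from 40 to 697 CPM with both extremes in different genotypes. C4a, next to the complement gene C4b, held 4562 to 16741 reads.

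Of other origin were Gm15459 (a copy of the chaperone gene Hspa8, 19535 to 52552 reads), Gstp-ps (glutathione S-transferase Gstp2, 4788 to 21949 reads), Gm13456 (elongation factor Eef1a1, 9551 to 14205 reads), Cyp2d13 (a cytochrome P450 relative, 6448 to 10812 reads) and Gm5096 (betaine-homocysteine methyltransferase Bhmt, 6258 to 10617 reads). Among these 9 pseudogenes the ranges of LT and Fpn-LKO overlapped in CPM for all but Gm8893. Their log2 fold changes ran from -0.86 (Mup-ps19) to 0.61 (Gm8893).

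Summed over the set, the share of reads was 0.977%, 0.791% and 1.43% in LT and 0.910%, 1.10% and 1.03% in Fpn-LKO. The means were 1.06% ± 0.33 (SD, n = 3) and 1.01% ± 0.10 (SD, n = 3), with overlapping groups (exact two-sided permutation p = 0.9). The sign of this difference hung on Mup-ps19. Without it the means were 0.820% ± 0.092 in LT and 0.876% ± 0.054 in Fpn-LKO (exact permutation p = 0.4).

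Sequences were then compared with the GENCODE M21 annotation of the same genome build (GRCm38, the assembly named mm10 in the labels), in which 360 of the 390 were found. GENCODE called 285 of these processed, 274 of them with a single exon, and 50 unprocessed, unitary or polymorphic. It called 20 protein-coding and 5 a noncoding transcript. The median identity to the closest coding gene was 99.2%, 189 were at least 99% identical over at least 50% of their length, and 39 were identical over the whole length. Windows of 100 bases, the read length of the study, were used to ask how much of each pseudogene also stood in a transcript of another gene that did not overlap it. For 32 pseudogenes no window was found elsewhere, for 125 some but less than 50%, for 157 at least 50% but not all, and for 46 all of them, with a median of 56.0%. A read of a pair can still be placed by its mate or by sequence outside the annotated copy. Position gave a second limit. On the same strand 53 overlapped the span of a coding gene, 6 of them across an exon, and 49 lay opposite a coding gene.

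For 327 pseudogenes a source gene could be named, from the symbol or from an identity of at least 90% over at least 50% of the length, and these fell to 223 source genes. Ribosomal protein genes were the largest class, as 39 of them were the source of 78 pseudogenes. Gapdh, the glycolytic enzyme gene, had 21 copies in the set, the ribosomal protein gene Rps2 had 16, Eef1a1 had 6, and the cyclophilin gene Ppia and the ribosomal protein gene Rpl10 had 5 each.

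Levels of a pseudogene and its parent were compared per length, as TPM, a level that allows for gene length and depth, in the 69 pairs whose symbol named the parent. The median pseudogene stood at 7.70% of its parent, 36 of 69 under 10% and 2 under 1%. Among the 10 pairs with the most pseudogene reads, Pisd-ps1 came nearest to its parent, the phosphatidylserine decarboxylase gene Pisd (20.7 ± 6.28 against 21.8 ± 1.62 TPM, SD, n = 6 libraries). Rps13-ps1 reached 54.6% of Rps13, Pgam1-ps2 41.2% of the glycolytic gene Pgam1, and Mpc1-ps 32.2% of the mitochondrial pyruvate carrier gene Mpc1. Windows that also stood in other genes made up 80.9% of Rps13-ps1, 100% of Pgam1-ps2 and 82.3% of Mpc1-ps, and 0% of Pisd-ps1. Levels of copies with shared windows depend on how the reads that fit several places were shared. Gpx4-ps2 stood at 18.6% of the glutathione peroxidase gene Gpx4, Rpl3-ps1 at 17.6% of Rpl3, and Oaz1-ps at 16.7% of the antizyme gene Oaz1. Ftl1-ps1 stood at 3.36% of the ferritin light chain gene Ftl1, Bhmt-ps1 at 0.971% of Bhmt and Eef1a1-ps1, the lowest of all, at 0.566% of Eef1a1. The only pseudogene above its parent was Marcksl1-ps4, at 10.04 ± 2.69 TPM against 3.43 ± 0.669 TPM for Marcksl1.

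**Figure D2:**
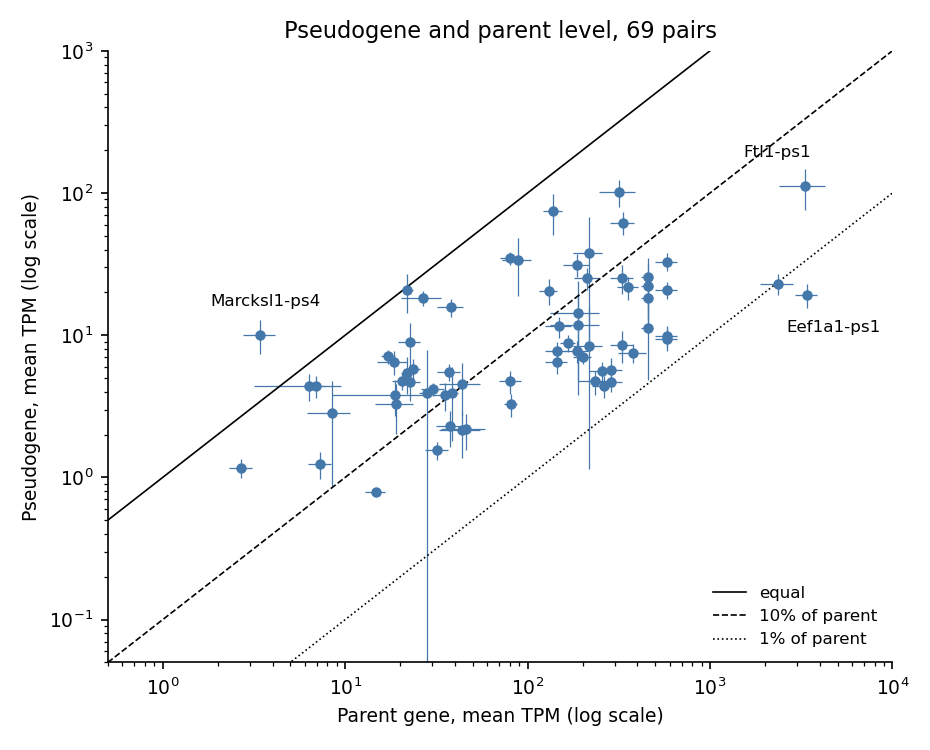
Mean TPM over 6 libraries of 69 pseudogenes (vertical, log scale) against the parent named by the symbol (horizontal, log scale); bars are SD over the 6 libraries, and a bar that would pass 0 runs to the lower edge. One point, Marcksl1-ps4, lies above the line of equal level, and 36 lie under the 10% line.

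The genotypes were compared with edgeR's quasi-likelihood test over 17274 genes, which included all 390 pseudogenes. The 2 pseudogenes that rose in the libraries labelled Fpn-LKO were Gm10036 and Nudc-ps1, and none fell. Across all genes tested 0.0232% were called, which is 4 genes, so these 2 pseudogenes were 2 of the 4, with Rpl29 and Nnmt the others. At an unadjusted p under 0.05 there were 25 pseudogenes (6.41%) beside 4.8% of all genes, of which 15 were higher in Fpn-LKO (2.62% of all genes were) and 10 lower (2.19% of all genes). The CPM of the genotypes did not overlap for 44 pseudogenes (11.3%) beside 10.6% of all genes, of which 19 were higher (5.25% of all genes) and 25 lower (5.34%). Both shares over the 2 directions lay near the background. The median log2 fold change was 0.001 over the pseudogenes and -0.004 over all genes, and 195 pseudogenes had a positive and 195 a negative value. DESeq2 and edgeR's exactTest each called 5 pseudogenes, where they called 0.417% and 0.365% of all genes.

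The limit of 100 reads bears on this count. For 24 pseudogenes the mean reached 100 reads in 1 genotype only. Gm10036 and Nudc-ps1 were both among them, each through Fpn-LKO, where they were higher. Of the 366 with at least 100 reads in each genotype, none was called, 21 had an unadjusted p under 0.05, and 38 (10.4%) did not overlap. DESeq2 and exactTest called Gm6472 and 9030619P08Rik, which are among these 366.

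**Figure D3:**
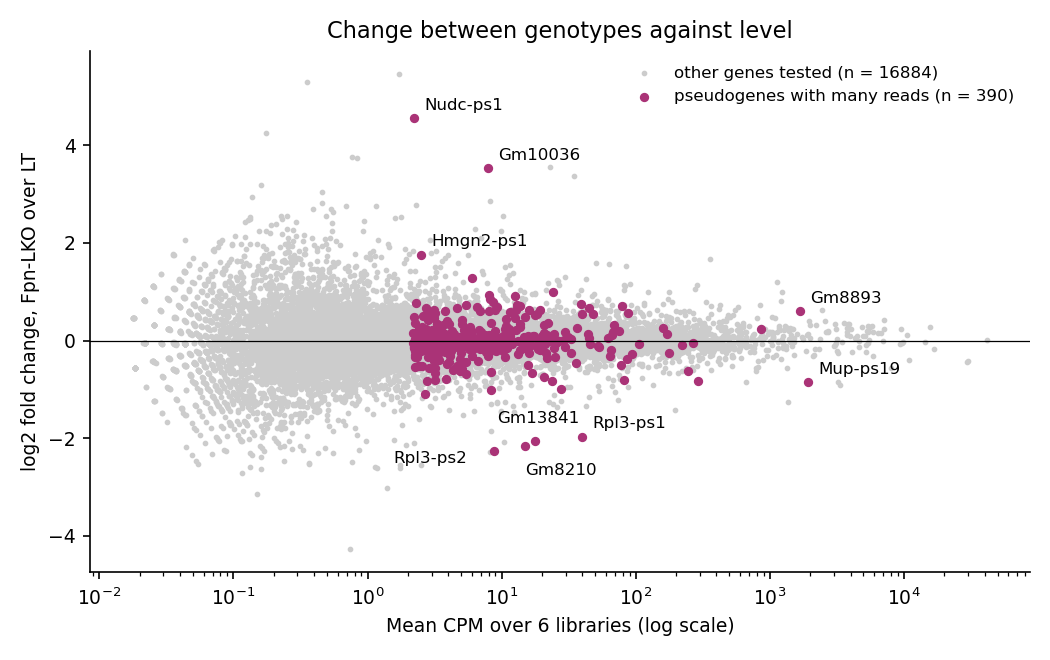
Fitted log2 fold change between genotypes (Fpn-LKO over LT) against mean CPM (log scale), with the 390 pseudogenes over the other genes tested. Most pseudogenes lie near 0, Nudc-ps1 and Gm10036 stand highest among them, and copies of Rpl3 and Rpl29 stand lowest.

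Gm10036 is a processed, single-exon copy of Rpl11, which encodes a protein of the large ribosomal subunit (534 bases, 99.3% identical to Rpl11). It held 74, 50 and 45 reads in LT and 685, 611 and 739 reads in Fpn-LKO. It met the read limit only through Fpn-LKO, the genotype in which it was higher. Every Fpn-LKO library lay far above every LT library, at 14.5 ± 1.42 CPM against 1.24 ± 0.21 CPM (SD, n = 3 each; log2 fold change 3.53 ± 0.19 SE, adjusted p = 0.00311). Rpl11 itself held 149, 125 and 157 CPM in LT against 127, 120 and 143 CPM in Fpn-LKO, with overlapping groups and a log2 fold change of -0.14 ± 0.13 SE (adjusted p = 0.987). Of the pseudogene's windows 40.0% also stood in other genes. The call was lost without LT replicate 2 (adjusted p = 0.0607), at a log2 fold change of 3.49, and 12 of 14 alternatives kept it.

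Nudc-ps1 is a partial processed copy of Nudc, a gene for a chaperone of the dynein motor, at chr8:29286431-29286981 on the minus strand of mm10 (551 bases, 98.9% identical). It held 10, 7 and 7 reads in LT and 237, 195 and 169 reads in Fpn-LKO, which are 0.18 ± 0.02 CPM and 4.26 ± 0.67 CPM (SD, n = 3 each; log2 fold change 4.56 ± 0.30 SE, adjusted p = 0.00616). Nudc held 27.0, 29.3 and 31.2 CPM in LT against 27.0, 30.0 and 29.3 CPM in Fpn-LKO, with no separation of the groups (log2 fold change -0.02 ± 0.11 SE). The sum of gene and pseudogene was 27.2, 29.4 and 31.4 CPM in LT against 32.0, 34.2 and 33.0 CPM in Fpn-LKO. It was higher in every Fpn-LKO library (exact two-sided permutation p = 0.1, the smallest possible). Nudc alone overlapped, and Nudc-ps1 met the read limit only through Fpn-LKO. The sum therefore holds a value selected as high in Fpn-LKO and gives no separate support. Windows shared with another gene made up 69.9% of the pseudogene, all in Nudc. Leaving out a library ended the call in 4 of 6 cases, without LT replicate 1 (adjusted p = 0.101), 2 (0.0636) or 3 (0.0764) and without Fpn-LKO replicate 2 (0.055), at log2 fold changes of 4.50 to 4.67. The stretch below, shown because the reads that tell gene from copy must cover such a position, is 120 bases of the Nudc coding sequence (GENCODE, positions 442 to 561 of the coding sequence) and of Nudc-ps1 at chr8:29286862-29286981, with the differing base in capitals. The pair differed at 1 base here and at 2 of the 551 aligned coding bases. These counts hold substitutions only and leave out gaps, which the BLAST identity of 98.9% takes in.
Nudc: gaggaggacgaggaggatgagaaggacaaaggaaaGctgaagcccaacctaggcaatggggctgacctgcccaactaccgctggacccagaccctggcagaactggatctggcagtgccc
Nudc-ps1: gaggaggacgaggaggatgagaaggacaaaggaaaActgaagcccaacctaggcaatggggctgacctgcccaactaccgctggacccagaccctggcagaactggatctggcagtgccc

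**Figure D4:**
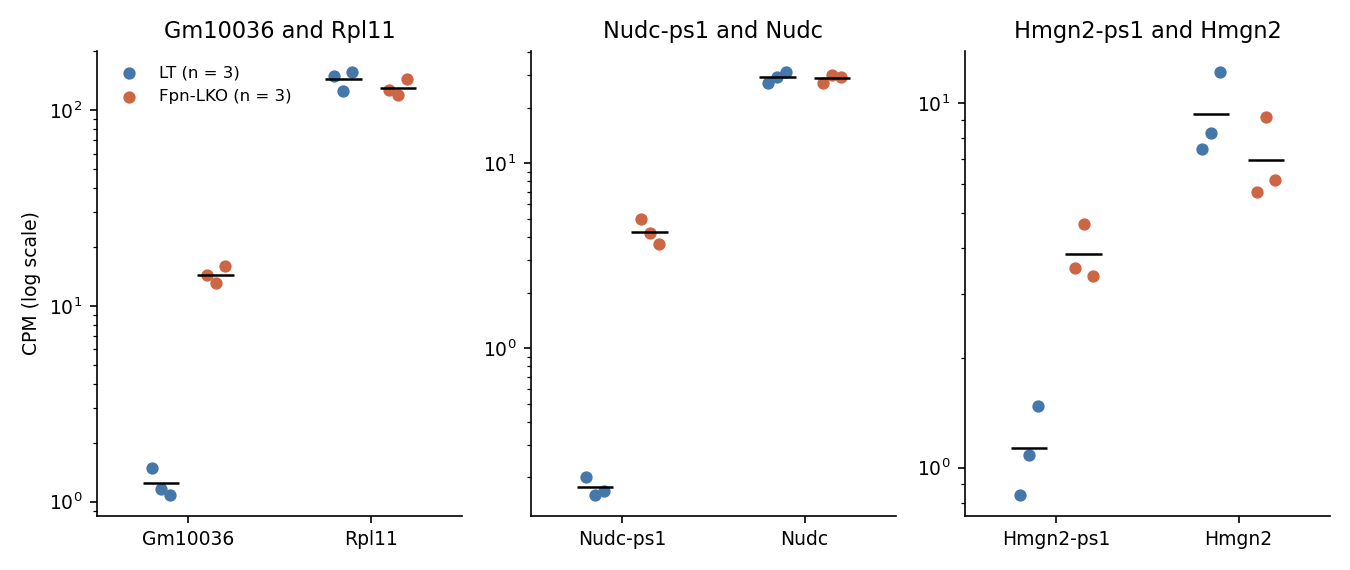
CPM (log scale) of 3 pseudogenes and of their source genes in the 3 LT and 3 Fpn-LKO libraries; each point is a mouse and each line a group mean. The pseudogenes separate by genotype, but all 3 met the read limit only through Fpn-LKO. Each source gene overlaps between genotypes.

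The next pseudogenes by unadjusted p did not pass the test. Gm6472, a copy of the ribosomal protein gene Rps7 on the X, held 39.3, 29.5 and 41.4 CPM in LT against 17.3, 17.4 and 20.97 CPM in Fpn-LKO, without overlap (log2 fold change -0.98 ± 0.16 SE, adjusted p = 0.401). Rps7 had a log2 fold change of 0.07 ± 0.14 SE. Hmgn2-ps1 is identical over its 279 bases to Hmgn2, which encodes a nucleosome-binding protein. It met the read limit only through Fpn-LKO, and held 42, 47 and 61 reads in LT and 168, 217 and 156 reads in Fpn-LKO (log2 fold change 1.76 ± 0.30 SE, adjusted p = 0.401), while Hmgn2 held 7.45, 8.27 and 12.2 CPM in LT against 5.68, 9.15 and 6.14 CPM in Fpn-LKO. Their sum overlapped between genotypes (exact permutation p = 0.6). 9030619P08Rik is an unprocessed relative of the Ly6 surface antigen genes with 4 exons and no window shared with another gene. It held 194, 99 and 178 reads in LT and 456, 382 and 358 reads in Fpn-LKO, also without overlap (log2 fold change 1.28 ± 0.26 SE, adjusted p = 0.57). DESeq2 and exactTest called these 3 together with Gm10036 and Nudc-ps1 (DESeq2 adjusted p of 0.000295 for Gm6472, 4.85e-05 for Hmgn2-ps1 and 0.00185 for 9030619P08Rik). Cyp2d37-ps, from the Cyp2d cluster of drug-metabolising enzymes and also without shared windows, held 96.3, 97.6 and 79.6 CPM in LT against 68.9, 71.4 and 52.8 CPM in Fpn-LKO (log2 fold change -0.50 ± 0.15 SE, adjusted p = 0.982).

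The families that follow were chosen after their values were seen, apart from pseudogenes among the 10 smallest p. Copies of Ftl1 lay together. Ftl1 encodes the light chain of ferritin, the protein shell that stores iron, and ferroportin is the exporter that carries iron out of cells. All 4 copies, Ftl1-ps1, Ftl2-ps, Gm15590 and Gm12164, lay higher in every Fpn-LKO library than in any LT library, and so did Ftl1. The same held for 5.25% of all genes tested. The highest of the copies, Ftl1-ps1, which GENCODE lists as protein-coding, held 62.7, 71.5 and 46.1 CPM in LT against 110, 79.5 and 106 CPM in Fpn-LKO. The log2 fold changes were 0.71 ± 0.19 for Ftl1-ps1, 0.54 ± 0.14 for Ftl2-ps, 0.54 ± 0.14 for Gm15590 and 0.47 ± 0.16 for Gm12164 (SE), beside 0.62 ± 0.17 for Ftl1. None passed the test (adjusted p of 0.823 to 0.982 for the copies and 0.926 for Ftl1, which DESeq2 called at 0.0096). Summed, the 4 copies held 158, 153 and 121 CPM in LT against 227, 188 and 244 CPM in Fpn-LKO, and Ftl1 held 2029, 2055 and 1712 CPM in LT against 2928, 2707 and 3266 CPM in Fpn-LKO. The log2 ratio of Ftl1-ps1 to Ftl1 overlapped between genotypes (-5.03 ± 0.19 in LT and -4.93 ± 0.18 in Fpn-LKO, SD; exact permutation p = 0.5). Windows that also stood in other genes made up 71.9%, 71.1%, 43.0% and 35.2% of the copies. These copies share sequence with Ftl1, so their counts are not independent of it or of each other. The stretch shows what sets them apart, in positions 385 to 504 of the Ftl1 coding sequence. The copies are Ftl1-ps1 (chr13:74400273-74400392, plus strand), Ftl2-ps (chr4:125504672-125504791, plus), Gm15590 (chr17:6131902-6132021, minus) and Gm12164 (chr11:45829702-45829821, plus). Capitals mark bases in which a copy differed from Ftl1, and in the line of Ftl1 every position at which any copy differed. Over the 549 coding bases the copies had 2, 7 and 5 differences, and Gm12164 had 17 over 546 aligned bases.
Ftl1: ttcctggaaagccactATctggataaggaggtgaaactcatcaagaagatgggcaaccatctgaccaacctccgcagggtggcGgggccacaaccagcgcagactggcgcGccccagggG
Ftl1-ps1: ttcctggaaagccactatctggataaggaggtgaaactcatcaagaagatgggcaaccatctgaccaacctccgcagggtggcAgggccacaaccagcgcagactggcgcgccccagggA
Ftl2-ps: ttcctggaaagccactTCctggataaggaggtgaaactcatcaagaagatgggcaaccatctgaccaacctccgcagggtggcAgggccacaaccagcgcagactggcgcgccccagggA
Gm15590: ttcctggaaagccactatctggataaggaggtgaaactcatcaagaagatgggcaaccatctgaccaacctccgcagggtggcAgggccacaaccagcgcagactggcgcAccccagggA
Gm12164: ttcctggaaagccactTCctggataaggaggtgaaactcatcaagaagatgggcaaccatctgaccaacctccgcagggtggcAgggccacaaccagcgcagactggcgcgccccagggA

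Rpl29, which encodes a protein of the large ribosomal subunit, and its 3 copies lay in opposite directions. Rpl29 rose from 5.64, 4.36 and 8.31 CPM in LT to 73.0, 73.2 and 43.3 CPM in Fpn-LKO (log2 fold change 3.37 ± 0.31 SE, adjusted p = 0.0289). Gm13841 held 29.0, 25.1 and 31.4 CPM in LT against 1.49, 1.22 and 17.7 CPM in Fpn-LKO. Gm8210 held 24.8, 22.0 and 26.0 CPM in LT against 1.07, 0.942 and 14.3 CPM in Fpn-LKO, and Gm6344 held 3.48, 3.39 and 4.13 against 1.32, 1.199 and 2.65 CPM. Gm6344 met the read limit only through LT (mean of 163.67 reads, against 80.67 in Fpn-LKO), so its lower value in Fpn-LKO gives no separate support. All 3 copies were lower in every Fpn-LKO library (5.34% of all genes tested were), with Fpn-LKO 3 between LT and the other 2 knockouts. Their log2 fold changes were -2.07 ± 0.93, -2.16 ± 0.95 and -1.09 ± 0.35 (SE), and none passed the test (adjusted p = 0.982 each). Without Fpn-LKO replicate 3 Gm13841 and Gm8210 were called (log2 fold changes of -4.39 and -4.59, adjusted p of 0.0019 and 0.00172). Leaving out any library other than Fpn-LKO 3 ended the call of Rpl29 (adjusted p of 0.0764 without LT 3, 0.129 without Fpn-LKO 1, 0.159 without LT 2, 0.181 without Fpn-LKO 2 and 0.377 without LT 1). The sum of Rpl29 and its copies was 62.9, 54.9 and 69.9 CPM in LT against 76.9, 76.6 and 77.8 CPM in Fpn-LKO, higher in every Fpn-LKO library (exact two-sided permutation p = 0.1, the smallest possible) but over a range far smaller than that of Rpl29 or the copies alone. The family was chosen with its values known, so this sum gives no separate support. The 3 copies shared 100%, 100% and 92.2% of their windows with other genes. Positions 335 to 454 of the Rpl29 coding sequence are shown because the copies have 3 differences each over the 480 coding bases, with Gm13841 at chr5:115801706-115801825 (minus strand), Gm8210 at chr1:43189490-43189609 (plus) and Gm6344 at chr13:55086111-55086230 (plus), and capitals as for Ftl1.
Rpl29: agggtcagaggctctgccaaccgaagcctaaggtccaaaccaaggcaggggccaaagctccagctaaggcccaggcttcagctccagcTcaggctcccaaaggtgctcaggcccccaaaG
Gm13841: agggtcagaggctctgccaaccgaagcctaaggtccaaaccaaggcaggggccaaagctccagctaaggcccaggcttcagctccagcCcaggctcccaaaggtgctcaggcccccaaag
Gm8210: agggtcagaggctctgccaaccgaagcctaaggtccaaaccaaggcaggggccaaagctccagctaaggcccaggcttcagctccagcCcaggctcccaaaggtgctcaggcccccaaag
Gm6344: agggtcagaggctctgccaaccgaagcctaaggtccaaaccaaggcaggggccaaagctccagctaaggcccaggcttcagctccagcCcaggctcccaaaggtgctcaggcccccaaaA

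**Figure D5:**
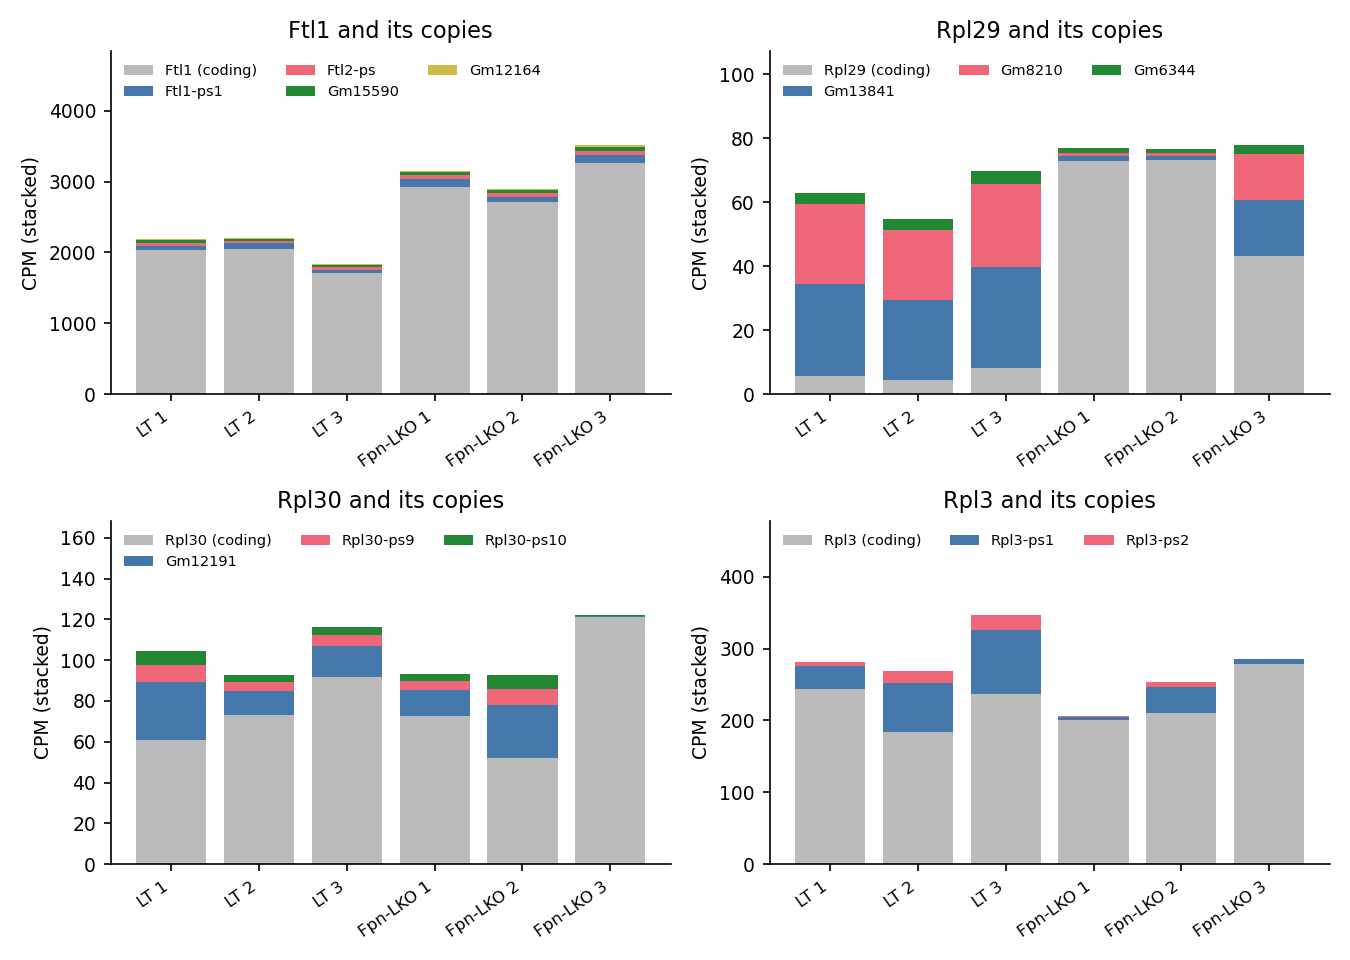
CPM of a coding gene (grey) and its pseudogene copies (colours), stacked, in each of the 6 libraries, for Ftl1, Rpl29, Rpl30 and Rpl3. For Ftl1 the copies are a small part and stand higher with the gene in Fpn-LKO, for Rpl29 the parts change places between genotypes, for Rpl30 the copies nearly vanish in Fpn-LKO 3, and for Rpl3 they are low in Fpn-LKO 1 and 3.

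Rpl3, another gene of the large subunit, has 2 copies on the X. Rpl3-ps1 held 1560, 2963 and 3695 reads in LT and 228, 1709 and 316 reads in Fpn-LKO, and Rpl3-ps2 held 319, 724 and 840 reads in LT and 23, 356 and 45 reads in Fpn-LKO. Fpn-LKO 1 and 3 were low for both, Fpn-LKO 2 lay within the LT range for both, and the genotypes overlapped. Neither difference passed the test (log2 fold change -1.97 ± 0.77 SE and -2.26 ± 0.94 SE, adjusted p = 0.982 each), nor did that of Rpl3 (184 to 244 CPM in LT and 201 to 278 CPM in Fpn-LKO). Without Fpn-LKO replicate 2 the log2 fold change of Rpl3-ps1 was -3.44 (adjusted p = 0.65). Positions 667 to 786 of the Rpl3 coding sequence show how near the copies are, at chrX:13203238-13203357 for Rpl3-ps1 and chrX:74171321-74171440 for Rpl3-ps2, both on the plus strand. Rpl3-ps1 had 2 differences from Rpl3 over 1209 coding bases and Rpl3-ps2 had 10 over 1208 aligned bases.
Rpl3: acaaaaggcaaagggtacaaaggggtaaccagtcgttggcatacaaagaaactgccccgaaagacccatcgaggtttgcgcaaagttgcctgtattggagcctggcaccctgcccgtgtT
Rpl3-ps1: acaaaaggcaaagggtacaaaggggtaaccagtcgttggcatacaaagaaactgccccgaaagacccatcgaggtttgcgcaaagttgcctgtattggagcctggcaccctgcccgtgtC
Rpl3-ps2: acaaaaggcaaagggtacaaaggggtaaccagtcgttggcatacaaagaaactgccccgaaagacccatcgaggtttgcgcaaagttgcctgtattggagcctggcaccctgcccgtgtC

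Of the other families, 4 are described, and none of their copies passed the test. The 21 Gapdh copies had log2 fold changes from -0.07 to 0.11, none without overlap, beside -0.05 for Gapdh. All 16 Rps2 copies had positive values, from 0.10 to 0.93, against -0.22 for Rps2, but these copies share nearly the same sequence and so are not independent. Their summed level in LT 2 was 52.8 CPM, below the 123 to 190 CPM of the other 5 libraries. The 4 copies of Rps3a1 had values from -0.38 to -0.31 against 0.36 for Rps3a1. Both copies of the stress chaperone gene Hsp90aa1, Gm12346 (0.76 ± 0.24 SE) and Gm5844 (0.69 ± 0.21 SE), lay higher in every Fpn-LKO library. Hsp90aa1 did so too (0.73 ± 0.24 SE), as did 5.25% of all genes tested. Neither the copies nor Hsp90aa1 passed the test (adjusted p = 0.982 each). In all, 7 of 78 pseudogenes from ribosomal protein genes had an unadjusted p under 0.05 (8.97%), beside 4.8% of all genes. Of these 1 was higher in Fpn-LKO (2.62% of all genes) and 6 were lower (2.19% of all genes), and the 6 include both copies of Rpl3. The 1 higher was Gm10036, which met the read limit only through Fpn-LKO, and the 6 lower include Gm6344, which met it only through LT. Of the 249 from other sources 14 had an unadjusted p under 0.05 (5.62%), 12 higher and 2 lower. The 12 include Nudc-ps1 and Hmgn2-ps1, which met the read limit only through Fpn-LKO. The difference between the classes was not tested.

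Ratios to the parent compared each pseudogene with its parent within a library. In 48 of the 69 pairs the log2 ratio ranged over less than 1 across the 6 libraries, with a median range of 0.47. For 12 pairs (17.4%) the ratio did not overlap between genotypes. The CPM of 10.6% of all genes did not overlap, but CPM of single genes is a different measure. No share was computed for ratios of other gene pairs, and some of the 69 pairs share a parent. It was higher in Fpn-LKO for Nudc-ps1 (difference of log2 ratios 4.51), Hmgn2-ps1 (2.18), Rps15a-ps5 (0.69), Atp6v0c-ps2 (0.58) and Rps15a-ps6 (0.36). It was lower for Pcna-ps2 (-1.13), Gstm2-ps1 (-0.71), Ywhaq-ps3 (-0.26), Rps12-ps17 (-0.21), Rps16-ps2 (-0.20), Bhmt-ps1 (-0.15) and Rpl10a-ps1 (-0.11). The 2 highest differences belong to Nudc-ps1 and Hmgn2-ps1, which met the read limit only through Fpn-LKO. A ratio can also differ through the parent, as for Atp6v0c-ps2 (log2 fold change 0.02 beside -0.55 for Atp6v0c) and Gstm2-ps1 (0.16 beside 0.99 for Gstm2), and neither parent passed the test. With 3 mice against 3 no pair could go below an exact two-sided permutation p of 0.1, which is 0.575 after adjustment over the 69 pairs. Among the 55 parents, none was called, 4 had an unadjusted p under 0.05, and DESeq2 called 1, Ftl1. Pseudogene and parent had log2 fold changes of the same sign in 31 of 69 pairs.

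For some pseudogenes a single library stood far from the rest. The spread between mice of 1 genotype, as the SD of log2(CPM + 0.1), had a median of 0.25 over the 390 pseudogenes and 0.21 over the 10637 other genes with at least 100 reads, and exceeded 1 for 29 pseudogenes and 164 of the other genes. By the share of windows found elsewhere, the median was 0.37 with none, 0.28 with less than 50%, 0.22 with 50% or more and 0.18 with all. In 30 pseudogenes (7.69%) at least 1 library lay more than 4-fold from the median of the other 5, as it did in 1.48% of the other genes, and for 20 (5.13%) it was exactly 1 library, beside 0.997% of the other genes. The sets were not matched on reads, with a median of 266 reads over the pseudogenes and 733 over the other genes. The part of the read level in these differences was not tested. These shares are descriptions with no test, and the examples that follow were chosen after their values were seen.

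Fpn-LKO 3 was low for all 3 copies of Rpl30, a gene of the large ribosomal subunit. Gm12191 held 1414, 518 and 639 reads in LT and 610, 1216 and 15 reads in Fpn-LKO. Rpl30-ps9 held 4 reads and Rpl30-ps10 held 11 reads in Fpn-LKO 3, beside 188 to 421 and 144 to 338 reads in the other 5 libraries. Rpl30 was highest in that library, at 121 CPM against 52.2 to 91.7 CPM, so the sum of 122 CPM stood beside 92.6 to 116 CPM elsewhere. Eif3s6-ps2, a copy of the translation initiation factor gene Eif3e, held 1 read in Fpn-LKO 3 and 77 to 213 reads elsewhere, and LOC102238518 held 0 reads there and 78 to 190 elsewhere.

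LT 1 was low for Gm10154, a copy of Rpl34, with 1 read beside 323 to 801 reads in the other libraries. Rpl34 was highest in LT 1, at 78.8 CPM, and lowest in LT 3, at 14.9 CPM, where Gm10154 was highest. LT 1 was also low for Mup-ps18 and Mup-ps9, with 64 and 18 reads beside 1194 to 3663 and 106 to 406 reads. The 21 coding Mup genes were lowest in LT 1 too, at a sum of 32980 CPM beside 50550 to 146000 CPM elsewhere. In LT 2, Gm13443, a copy of the glyoxalase gene Glo1, held 55 reads beside 873 to 2175 reads elsewhere, and 3 of the 16 Rps2 copies were also low. In Fpn-LKO 1 the low pseudogenes included Adh6-ps1 (3.61 CPM beside 22.8 to 61.0), Gm6937 (0.671 beside 6.57 to 12.5), Gm6123 (0.440 beside 4.93 to 8.10) and Rtraf-ps (0.294 beside 2.20 to 4.06 CPM). The gaps between mice of the same genotype were thus as wide, for some pseudogenes, as the gap between genotypes for Gm10036 and Nudc-ps1. In these called pseudogenes all 3 mice of each genotype lay together, but both met the read limit only through Fpn-LKO.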

How the data were processed

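Total RNA from 6 livers was sequenced as paired reads of 100 bases. The labels name a stranded mRNA kit and the study's methods a stranded total RNA kit, so the selection is uncertain. The authors deposited 1 table with read counts, FPKM and TPM per gene; the deposited counts and TPM were used and the FPKM were not. The submitters' processing notes name FastQC 0.11.7, HISAT2 2.1.0, Bowtie2 2.3.4.1, StringTie 2.1.3b and mm10; how reads that fit several places were shared is not given in the sources used here. Depth was 43086184 to 47778683 counted reads.

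The 17274 genes with reads in at least 5 libraries were fitted with TMM scaling and edgeR 4.0.16 quasi-likelihood tests (Benjamini-Hochberg over all genes, threshold 0.05), in R 4.3.3. DESeq2 1.42.0, exactTest, limma 3.58.1 (371 of the 390 pseudogenes) on log2(TPM + 1) and log2(TPM + 0.1), other scaling and filters, a replicate block, leaving out each mouse and read limits of 50 and 200 were alternatives. CPM are TMM-scaled. Ratios to parents used log2((reads + 0.5)/(reads + 0.5)) with exact two-sided permutation tests (SciPy 1.17.1). A parent was the symbol before -ps, with a mean of at least 10 reads. Closest coding genes came from BLAST 2.17.0 against GENCODE M21 transcripts, leaving out genes listed as pseudogenes; windows are exact matches of 100 bases. Printed sequences come from those transcripts. Differences over coding bases are substitutions at aligned bases, and gaps were not counted. No sequence is printed for Gm10036.

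Pseudogenes were named if called, among the 10 with most reads or the 10 smallest p, beside the read limit, among the 10 pairs with most reads, or with a ratio that did not overlap; any other name was picked with its values known. The members and lists were chosen with earlier results of these data known. Replicates are separate mice by their labels. 1 of the 10 pseudogenes with most reads is not reported here.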

Additional observations from a re-analysis of the deposited data

How the results depend on the processing

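The number of called pseudogenes was 2. It was 5 with DESeq2 and 5 with exactTest, 1 with a limit of 200 reads, 0 among those with 100 reads in both genotypes, and 0 to 4 when a mouse was left out (0 without LT replicate 2, 4 without Fpn-LKO replicate 3, 1 without LT replicate 1 or 3 or Fpn-LKO replicate 2). The other scalings and filters, both limma fits and the limit of 50 reads kept 2. With a replicate block 0 pseudogenes were called; the numbers share no mouse, same-numbered libraries deviated with correlations of 0.13, -0.01 and 0.04, and not every library correlated best with its own number, so the block was not taken as a pairing. The median log2 fold change was 0.0907 with log2(TPM + 1) and 0.1058 with log2(TPM + 0.1), where the median of all genes was 0.08 and 0.10, and -0.0446 to 0.0427 leaving out a mouse. Pseudogenes without overlap numbered 29 with 200 reads and 67 to 100 leaving out a mouse, where fewer libraries make overlap rarer. The difference in the share of reads (-0.051 percentage points) was 0.056 without Mup-ps19, 0.13 without LT replicate 3, 0.0015 without Fpn-LKO replicate 1, and -0.19 to 0.13 over all mice left out. DESeq2 called 1 parent. Ratios without overlap numbered 16 to 21 leaving out a mouse. Of values near 0, the log2 fold change of Slc40a1 took the other sign at -0.0962 and -0.1146 without Fpn-LKO or LT replicate 3 (-0.1146 to 0.1442 over all mice left out), Rpl3 at -0.1092 and -0.0614 without Fpn-LKO replicate 3 or LT replicate 2 (-0.1092 to 0.1388), and Nudc at 0.0734 and 0.0714 in the limma fits, 0.0236 without Fpn-LKO replicate 1 and 0.0326 without LT replicate 3 (-0.0715 to 0.0326). The cause was not tested in these cases. With 3 mice a genotype and reads that fit several genes, the precision of a single pseudogene's count is limited.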
